A study of Homo sapiens with 4 samples.

Results

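The Eph receptors and ephrins are described here in 4 RNA-seq libraries of human triple-negative breast cancer cells. The 10 genes are the rows of the deposited expression table whose Ensembl identifiers belong to EPHA1, EPHA2, EPHA4, EPHB2, EPHB3, EPHB4, EFNA1, EFNA4, EFNB1 and EFNB2, of 50653 genes listed. They comprise 6 receptors and 4 ligands, and the whole family has 22 genes in the table. The remaining 12 are summarised after the members.

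The study silenced quinolinate phosphoribosyltransferase (QPRT), an enzyme of the kynurenine route to NAD, in BT-20 and MDA-MB-468 cells, both established lines. Each line carried an shRNA against QPRT or a control one, delivered by a lentiviral vector (pLKO.1-puro for the hairpin against QPRT) with puromycin selection, and was kept as stably transduced cells. There was 1 library for each of the 4 combinations of line and shRNA, so a difference between shRNAs within a line has no replicate and no test. The lines were grown in different media (Eagle's Minimum Essential Medium for BT-20, Leibovitz's L-15 for MDA-MB-468), so the effects of line and medium cannot be told apart. The labels do not say how many separate transductions a library stands for.

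Eph receptors form the largest family of receptor tyrosine kinases, and they are activated by ephrins on the surface of a neighbouring cell. Ephrin-A ligands are held in the membrane by a lipid anchor and bind mainly EphA receptors, whereas ephrin-B ligands span the membrane and bind mainly EphB receptors, with EphA4 binding both classes. Signals run forward into the receptor cell and in reverse into the ligand cell, and they steer cell repulsion, adhesion and migration in epithelia, vessels and nerves.

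Values are FPKM, the fragments on a gene scaled to the length of its transcripts and to the size of the library. The libraries held 10321985 to 10945933 fragments, recovered from the FPKM steps. Where a pair of values is given for a line, the control shRNA comes first and the QPRT shRNA after it. QPRT itself stood at 249 FPKM in BT-20 with the control shRNA against 40.5 with the QPRT shRNA, and at 117 against 18.3 in MDA-MB-468. The epithelial markers EPCAM, CDH1, KRT8, KRT18, KRT19 and EGFR were present in every library, PGR was listed at 0 in all 4, ESR1 lay between 1.05 and 5.76 FPKM and ERBB2 between 50.7 and 129. The 3 fibroblast markers summed to 15.1 to 32.4 FPKM, mostly COL1A1, and the 3 leukocyte markers to 0.655 to 12.8 FPKM, mostly LYZ. A list of 20 gut epithelium and plasma cell markers, all above 0 in at least 1 library, summed to 84.6 FPKM in BT-20 with the control shRNA and 35.5 with the QPRT shRNA, and to 205 and 44.4 in MDA-MB-468, with between 1 and 4 of them at 0 in a library. It was thus lower with the QPRT shRNA in both lines, and its part in the differences given below was not tested. Of the endothelial markers, CDH5 reached 96.5 and 134 FPKM in BT-20 against 1.24 and 0.912 in MDA-MB-468, while PECAM1 stayed between 1.06 and 3.27 and VWF between 0.181 and 1.94. In bulk RNA, fewer cells expressing a gene and less RNA per cell cannot be told apart.

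The 250 bases upstream of the transcription start are shown for 5 members on which the results below turn, namely the leading receptor of each line (EPHA2 and EPHB4) and the members with the largest ratios between shRNAs within a line (EPHA4 and EFNB2 in BT-20, EPHB3 in MDA-MB-468). The sequences are from RefSeq on GRCh38.p14, on the coding strand and in the 5′ to 3′ direction. All 10 members had a window, 12 windows in all. Capitals mark exact matches, on either strand, to the GC box (GGGCGG or CCGCCC), the CCAAT box (CCAAT or ATTGG), the TATA box (TATAAA or TTTATA), the cAMP response element (TGACGTCA) and the AP-1 site (TGACTCA or TGAGTCA); neighbouring matches can overlap.
EPHA2 (chr1:16156070-16156319, minus strand): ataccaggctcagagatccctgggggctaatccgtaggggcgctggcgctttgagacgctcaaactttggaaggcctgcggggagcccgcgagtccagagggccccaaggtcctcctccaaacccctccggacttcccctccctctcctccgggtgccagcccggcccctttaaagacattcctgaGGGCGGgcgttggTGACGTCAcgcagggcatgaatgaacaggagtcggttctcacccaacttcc
EPHA4, outer start (chr2:221574203-221574452, minus strand): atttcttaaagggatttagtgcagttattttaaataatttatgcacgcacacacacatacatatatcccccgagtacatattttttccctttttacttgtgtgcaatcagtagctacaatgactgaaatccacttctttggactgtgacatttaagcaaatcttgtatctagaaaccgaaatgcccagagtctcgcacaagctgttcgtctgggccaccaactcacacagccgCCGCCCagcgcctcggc
EPHA4, inner start (chr2:221572305-221572554, minus strand): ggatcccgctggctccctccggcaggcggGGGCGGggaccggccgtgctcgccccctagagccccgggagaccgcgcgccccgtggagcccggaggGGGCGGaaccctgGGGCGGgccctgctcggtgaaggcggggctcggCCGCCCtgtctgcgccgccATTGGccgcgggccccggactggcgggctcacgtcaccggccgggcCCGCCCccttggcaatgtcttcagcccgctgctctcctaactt
EPHB3 (chr3:184561535-184561784, plus strand): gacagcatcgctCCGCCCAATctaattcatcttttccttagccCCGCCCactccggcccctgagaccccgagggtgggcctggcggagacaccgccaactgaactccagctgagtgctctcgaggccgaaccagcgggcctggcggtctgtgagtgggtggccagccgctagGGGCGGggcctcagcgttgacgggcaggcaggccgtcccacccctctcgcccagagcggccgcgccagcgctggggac
EPHB4 (chr7:100827524-100827773, minus strand): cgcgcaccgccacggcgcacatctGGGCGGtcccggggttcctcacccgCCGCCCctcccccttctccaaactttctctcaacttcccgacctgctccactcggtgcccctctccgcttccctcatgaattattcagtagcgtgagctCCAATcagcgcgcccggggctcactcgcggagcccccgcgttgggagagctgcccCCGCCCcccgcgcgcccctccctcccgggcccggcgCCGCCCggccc
EFNB2 (chr13:106535663-106535912, minus strand): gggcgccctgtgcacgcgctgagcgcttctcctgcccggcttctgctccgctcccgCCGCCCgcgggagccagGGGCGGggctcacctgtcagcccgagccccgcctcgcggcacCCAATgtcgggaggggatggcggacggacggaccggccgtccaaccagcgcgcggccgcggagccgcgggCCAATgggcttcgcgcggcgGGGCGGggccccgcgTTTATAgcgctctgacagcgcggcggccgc
A GC box was found in all 12 member windows, against 42.6% of 35116 RefSeq promoter windows of the same length. The 2 windows of EPHB2 overlap almost wholly and are not separate promoters. The member windows held 43.2% to 84.8% G and C, and the shares were not adjusted for this. A CCAAT box was found in 7 of the 12 windows, against 32.0% of all windows. The cAMP response element was found in the EPHA2 window only, against 1.65% of all windows, and the TATA box in the EFNB2 window only, against 10.7%. No member window held an AP-1 site, which 4.20% of all windows held. The 2 starts of EPHA4 differed in base composition, with 43.2% G and C at the outer start and 78.0% at the inner start. Such a match describes the letters alone.

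Between the lines, the B-class members differed in the direction opposite to EPHA1 and EPHA2. EPHB2, EPHB3, EPHB4, EFNB1 and EFNB2 were all higher in MDA-MB-468, by 2.24-fold to 5.80-fold in mean FPKM, and EPHA4 was higher by 8.64-fold. EPHA1 and EPHA2 were higher in BT-20, and EFNA1 and EFNA4 did not pass the test. The lines were compared with limma on log2(FPKM + 1) with shRNA as a term, over 14321 genes whose mean was 1 FPKM or more, and a gene was called at a Benjamini-Hochberg adjusted p under 0.05. Of the 10 members 8 were called, 6 higher in MDA-MB-468 and 2 higher in BT-20. Over all genes tested 55.1% were called, 30.7% as higher in MDA-MB-468 and 24.4% as higher in BT-20. The libraries of the lines did not overlap in 9 members (6 higher in MDA-MB-468 and 3 in BT-20), against 77.6% of all genes (42.8% and 34.7%). The median size of the difference was 1.22 log2 units in the members and 0.61 over all genes tested. The fit left 1 residual degree of freedom. Its prior degrees of freedom were estimated as infinite, so the spread was borrowed wholly from genes of like expression. The 2 libraries of a line carried different shRNAs, and no combination of line and shRNA had a repeat library. These p-values therefore do not measure the spread between repeat cultures of a line.

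**Figure D1:**
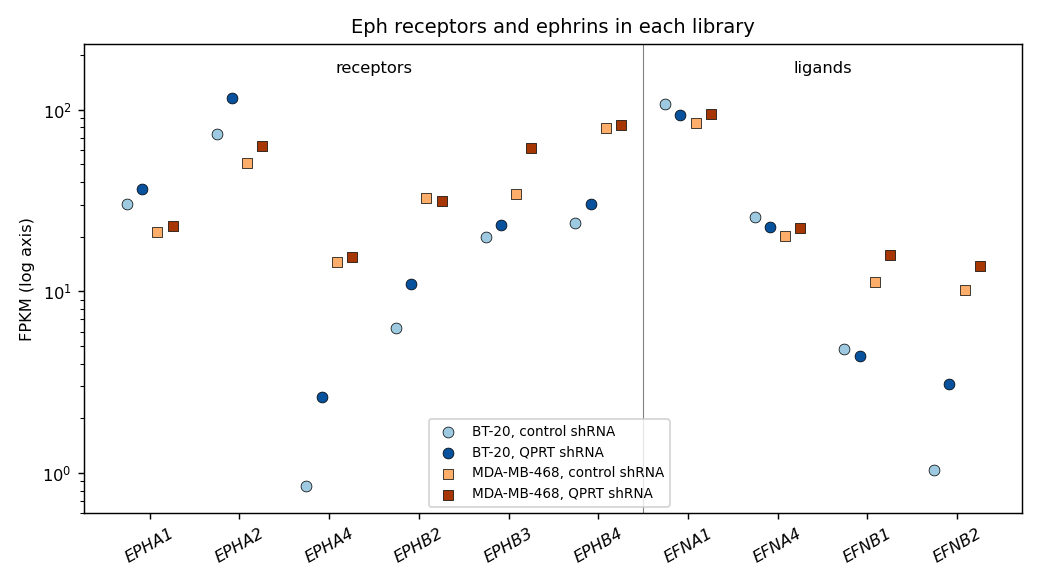
FPKM on a log axis of the 6 receptors and 4 ligands, 1 point per library (circles BT-20, squares MDA-MB-468, light control shRNA, dark QPRT shRNA). EPHA4 and EFNB2 lie near or below 3 FPKM in BT-20 but above 10 in MDA-MB-468, while EFNA1 and EFNA4 lie close together in all 4 libraries.

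EPHA2, a receptor widely studied in breast and other epithelial cancers, was the most abundant Eph receptor of BT-20. The gene (ENSG00000142627) lies at chr1:16124337-16156087 on the minus strand of GRCh38. Its level in BT-20 was 73.5 FPKM with the control shRNA and 117 with the QPRT shRNA, and in MDA-MB-468 it was 50.6 and 63.2. Both BT-20 libraries lay above both MDA-MB-468 libraries, and within each line the QPRT shRNA library was the higher one. The line difference, MDA-MB-468 minus BT-20, was -0.70 ± 0.20 log2 units (SE, limma adjusted p = 0.0016). That call was lost when 1 of 3 libraries was left out. The difference was -0.37 log2 units without BT-20 QPRT shRNA, -0.54 without MDA-MB-468 control shRNA and -0.86 without MDA-MB-468 QPRT shRNA. Fits with a library left out, here and below, also had no shRNA term, so a lost call cannot be laid to the missing library alone. With all 4 libraries and no shRNA term, EPHA2 was still called (limma adjusted p = 0.0313). An antisense gene, EPHA2-AS1, overlaps EPHA2 and had 4 to 17 fragments per library against 841 to 1931 for EPHA2. EPHA2 was among the genes that the study selected from these same libraries for display, so its difference with the shRNA is not independent evidence.

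EPHA1, an epithelial receptor and the founding member of the family, had the same order as EPHA2 at lower levels. It lies at chr7:143390289-143408892, and its FPKM was 30.2 and 36.5 in BT-20 with control and QPRT shRNA and 21.1 and 23.0 in MDA-MB-468. The libraries of the lines did not overlap, and the line difference was -0.57 ± 0.22 log2 units (SE, limma adjusted p = 0.0217). Leaving out any 1 of the 4 libraries ended this call, with limma adjusted p from 0.0602 to 0.139.

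EPHA4, the receptor that binds ephrins of both classes, had the largest line difference of the members. It lies at chr2:221418027-221574202 on the minus strand, the span that holds both starts printed above. BT-20 had 0.851 FPKM with the control shRNA and 2.61 with the QPRT shRNA, resting on 14 and 44 fragments, and MDA-MB-468 had 14.5 and 15.4 FPKM. The lowest MDA-MB-468 library was thus well above the highest BT-20 library. The line difference was 2.62 ± 0.27 log2 units (SE, limma adjusted p = 8.24e-21), and it was called with each library left out in turn. In size it exceeded 95.2% of all genes tested.

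The 3 EphB receptors among the members were all higher in MDA-MB-468. EPHB2, a receptor known from the intestinal crypt, lies at chr1:22710839-22921500 and had 6.32 and 11.0 FPKM in BT-20 against 32.7 and 31.4 in MDA-MB-468, a difference of 1.82 ± 0.24 log2 units (SE, limma adjusted p = 1.96e-13). EPHB4, the receptor of venous endothelium for ephrin-B2, lies at chr7:100802565-100827521 and had 23.7 and 30.2 FPKM in BT-20 against 78.9 and 82.8 in MDA-MB-468, a difference of 1.56 ± 0.21 log2 units (SE, limma adjusted p = 1.73e-12). Both calls held with each library left out. EPHB3, which is paired with EPHB2 in the crypt, lies at chr3:184561784-184582409 and had 19.8 and 23.1 FPKM in BT-20 against 34.4 and 61.7 in MDA-MB-468. Its libraries did not overlap between the lines either, but the MDA-MB-468 libraries were far apart. The difference was 1.07 ± 0.22 log2 units (SE, limma adjusted p = 4.9e-06), and it missed the threshold in limma without BT-20 control shRNA, BT-20 QPRT shRNA or MDA-MB-468 QPRT shRNA (adjusted p from 0.0816 to 0.168). With the QPRT shRNA, EPHB2 was 2.87-fold and EPHB3 2.67-fold higher in MDA-MB-468 than in BT-20, and the gut marker sums were 44.4 and 35.5 FPKM in the same libraries. Their part in these values was not tested.

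Of the ligands among the members, the ephrin-Bs EFNB1 and EFNB2 followed the EphB receptors. EFNB2, the ligand of EPHB4 that marks arterial endothelium, lies at chr13:106489731-106535662 and had 1.03 and 3.10 FPKM in BT-20 against 10.2 and 13.8 in MDA-MB-468. Its difference of 2.16 ± 0.27 log2 units was called (SE, limma adjusted p = 3.32e-14) and missed the threshold only without MDA-MB-468 QPRT shRNA (limma adjusted p = 0.0604). EFNB1, an X-linked ligand of the EphB receptors, lies at chrX:68828997-68842147 and had 4.80 and 4.40 FPKM in BT-20 against 11.2 and 15.9 in MDA-MB-468. Its difference of 1.36 ± 0.26 log2 units was called (SE, limma adjusted p = 7.7e-07) and missed the threshold only without BT-20 QPRT shRNA (limma adjusted p = 0.0528). For both ligands each MDA-MB-468 library lay above each BT-20 library.

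Neither ephrin-A among the members passed the test between the lines. EFNA1, the main ligand of EPHA2, was the most abundant family member in 3 libraries, with 108 and 94.1 FPKM in BT-20 against 84.0 and 94.2 in MDA-MB-468. Its libraries overlapped between the lines, and the difference was -0.18 log2 units (95% interval -0.57 to 0.22, limma adjusted p = 0.47). EFNA4 had 25.6 and 22.7 FPKM in BT-20 against 20.2 and 22.4 in MDA-MB-468, a difference of -0.17 log2 units (95% interval -0.62 to 0.28, limma adjusted p = 0.541). EFNA4, EFNA3 and EFNA1 follow one another on chromosome 1, with EFNA4 at 155063731-155069553 and EFNA1 at 155127460-155134857. EFNA3, which lies 9.32 kb beyond EFNA4 and 39.9 kb before EFNA1, was lower in MDA-MB-468 at 3.63 and 4.55 FPKM against 14.0 and 12.8 in BT-20. That difference of -1.51 ± 0.26 log2 units was called (SE, limma adjusted p = 4.59e-08). A readthrough gene, EFNA4-EFNA3, overlaps both EFNA4 and EFNA3 on the same strand. It was listed at 0 in every library, so reads that either gene shares with it may have been dropped in the counting.

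**Figure D2:**
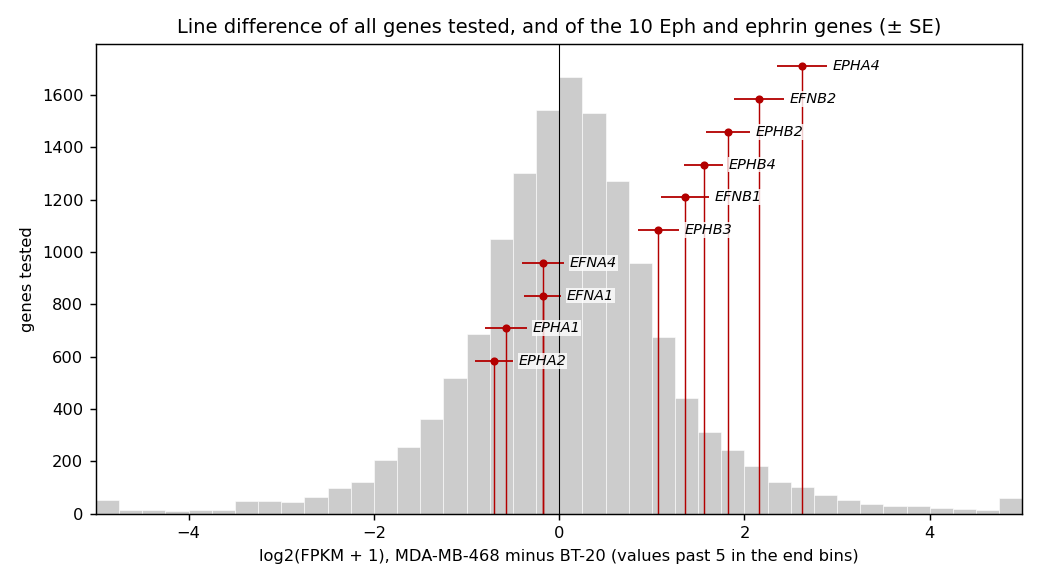
Histogram of the line difference, MDA-MB-468 minus BT-20 on the log2(FPKM + 1) scale, of the 14321 genes tested, with the 10 members marked by red points (bars ± SE, height of the points arbitrary). The 5 B-class members and EPHA4 lie to the right of 1, EPHA1 and EPHA2 lie left of 0, and the intervals of EFNA1 and EFNA4 lie nearest to 0.

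Within a library the order of levels differed between the lines. In BT-20 the ranges of EFNA1 (94.1 to 108 FPKM) and EPHA2 (73.5 to 117) overlapped at the top, and EPHA1, EPHB4, EFNA4 and EPHB3 followed within 19.8 to 36.5 FPKM. EPHB2, EFNB1, EFNB2 and EPHA4 came last, and the ranges of EFNB2 and EPHA4 overlapped. In MDA-MB-468 EFNA1 and EPHB4 led, EPHA2 and EPHB3 overlapped behind them, and EPHB2 came next. EPHA1 and EFNA4 overlapped there near 22 FPKM, and the range of EFNB1 (11.2 to 15.9) overlapped those of EPHA4 (14.5 to 15.4) and EFNB2 (10.2 to 13.8), which did not overlap each other. The length used in the FPKM was the mean over all transcripts of a gene, which for EPHA4 was 1548 bases against 6346 for its longest transcript, so the order between genes depends on that choice. Per kilobase of the longest transcript EFNA1 led in all 4 libraries.

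Summed over the family, the receptor pool of BT-20 was mostly EphA and that of MDA-MB-468 mostly EphB. The EphB receptors made up 38.4% of receptor FPKM in BT-20 with the control shRNA and 33.0% with the QPRT shRNA, against 61.8% and 62.2% in MDA-MB-468. EPHA2 alone made up 41.5% and 49.0% in BT-20 against 18.9% and 20.7% in MDA-MB-468, and EPHB4 made up 13.4% and 12.7% against 29.4% and 27.1%. The lines did not overlap in any of these shares. With the longest transcript as the length, the EphB share was 42.0% and 35.6% in BT-20 and 65.4% in each MDA-MB-468 library. Among the ligands EFNA1 made up 52.3% to 62.0% of ephrin FPKM in every library, and the ephrin-B share was 6.46% and 7.20% in BT-20 against 16.2% and 20.1% in MDA-MB-468. The ratio of EPHA2 to EFNA1 in FPKM was 0.683 and 1.24 in BT-20 against 0.603 and 0.672 in MDA-MB-468. The ratio of EPHB4 to EFNB2 was 22.9 and 9.72 in BT-20 against 7.75 and 5.99 in MDA-MB-468. Both ratios were descriptions of mRNA in 1 library each.

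**Figure D3:**
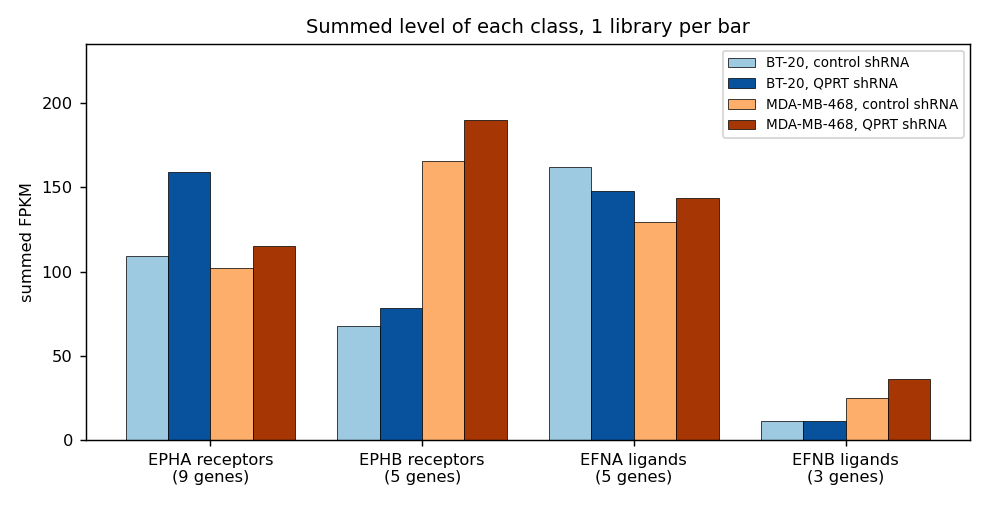
Summed FPKM of the EphA receptors (9 genes), EphB receptors (5), ephrin-A ligands (5) and ephrin-B ligands (3), 1 bar per library. The EphB and ephrin-B bars of MDA-MB-468 stand above those of BT-20, at 166 and 190 against 68.1 and 78.6 FPKM for the EphB receptors, while the ephrin-A bars differ by less, from 129 to 162.

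With the QPRT shRNA, no member passed the test over both lines. In the same limma fit 0 of 10 members were called for the shRNA, against 0.628% of all genes tested, and 3 had an unadjusted p under 0.05, against 4.80% of all genes. Limma-voom on the recovered fragments also called 0. The 3 were EFNB2, with a mean log2 difference of 0.71 ± 0.27 (SE, limma adjusted p = 0.535), EPHA2, with 0.49 ± 0.20 (limma adjusted p = 0.717), and EPHB3, with 0.52 ± 0.22 (limma adjusted p = 0.742). Each of these was higher with the QPRT shRNA in 2 of 2 lines, which picking by the mean over both lines favours. In all 6 members were higher in both lines, namely EPHA1, EPHA2, EPHA4, EPHB3, EPHB4 and EFNB2, against 26.2% of all genes, and 0 were lower in both, against 17.7%. The other 4 had opposite signs in the lines, against 54.6% of all genes. EPHB4 owed its place to a difference of 0.07 log2 units in MDA-MB-468, which became -0.06 once the trend with GC content and transcript length was removed. The 2 within-line differences share no library, and the cell lines were the only replicates of the knockdown.

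In BT-20 the QPRT shRNA library held more of all 6 receptors and of EFNB2, and less of EFNA1, EFNA4 and EFNB1, and 56.4% of all genes were higher. The median member difference was 0.30 log2 units against 0.05 over all genes tested. On the log2(FPKM + 1) scale 1 member, EFNB2, was past 2-fold, against 1.70% of all genes (1.05% higher), and 4 members were past 1.5-fold higher, against 5.70%. None was past 1.5-fold lower, against 3.27%. Without the pseudocount, EFNB2 was 2.98-fold higher on 49 and 150 fragments, and EPHA4 was 3.06-fold higher on 14 and 44 fragments. The counting intervals of these ratios, exact Clopper-Pearson at 95%, ran from 1.10 to 2.07 log2 units for EFNB2 and from 0.72 to 2.60 for EPHA4, and they cover counting error only. EPHB2 was 1.74-fold higher (0.56 to 1.03 log2 units) and EPHA2 was 1.59-fold higher (0.56 to 0.77).

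EPHA4, EFNB2 and EPHB2, which had the largest ratios in BT-20, were also the members furthest below their MDA-MB-468 level there, and both measures use the same BT-20 control library. With the control shRNA, BT-20 held 5.70% of the mean MDA-MB-468 level of EPHA4, 8.62% of that of EFNB2 and 19.7% of that of EPHB2. With the QPRT shRNA it held 17.5%, 25.9% and 34.2%. Another 13 genes were picked for 50 FPKM or more in MDA-MB-468 and under 0.1% of that level in BT-20 with the control shRNA. Their median was 0.0413% of the MDA-MB-468 level with the control shRNA and 0.547% with the QPRT shRNA. They were picked for a low value in the control library, so a higher value in the other is partly due to the choice. These medians are thus no test of the member values. EPHA4 and EFNB2 also had the lowest GC content of the members, 46.4% and 47.7% against 56.9% to 62.3% in the others and a median of 49.5% over all genes tested. With the trend on GC content and length removed, their BT-20 differences were 0.87 and 0.82 log2 units, compared with 0.96 and 1.01 before. The summed endothelial markers were 101 FPKM with the control shRNA and 140 with the QPRT shRNA in BT-20, nearly all of it CDH5, and their part in the EFNB2 and EPHB4 values was not tested.

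In MDA-MB-468 the largest ratio with the shRNA was that of EPHB3. It was 1.79-fold higher with the QPRT shRNA, on 653 and 1105 fragments (counting interval 0.70 to 0.99 log2 units), and it was the only member past 1.5-fold higher, against 5.46% of all genes, while 0 were past 1.5-fold lower, against 3.71%. In all 9 members, EPHB2 being the exception, were higher to some degree, against 51.5% of all genes. EFNB1 was 1.41-fold higher (0.31 to 0.69), EFNB2 was 1.36-fold higher (0.27 to 0.61) and EPHA2 was 1.25-fold higher (0.19 to 0.46). EPHA1, EPHA4, EPHB2, EPHB4 and EFNA4 had counting intervals that included 0. No member was past 2-fold, against 1.89% of all genes, and the median difference was 0.15 log2 units against 0.01 over all genes tested. The gut marker sum differed most in this line, 205 against 44.4 FPKM, and its part in the EPHB3 values was not tested.

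**Figure D4:**
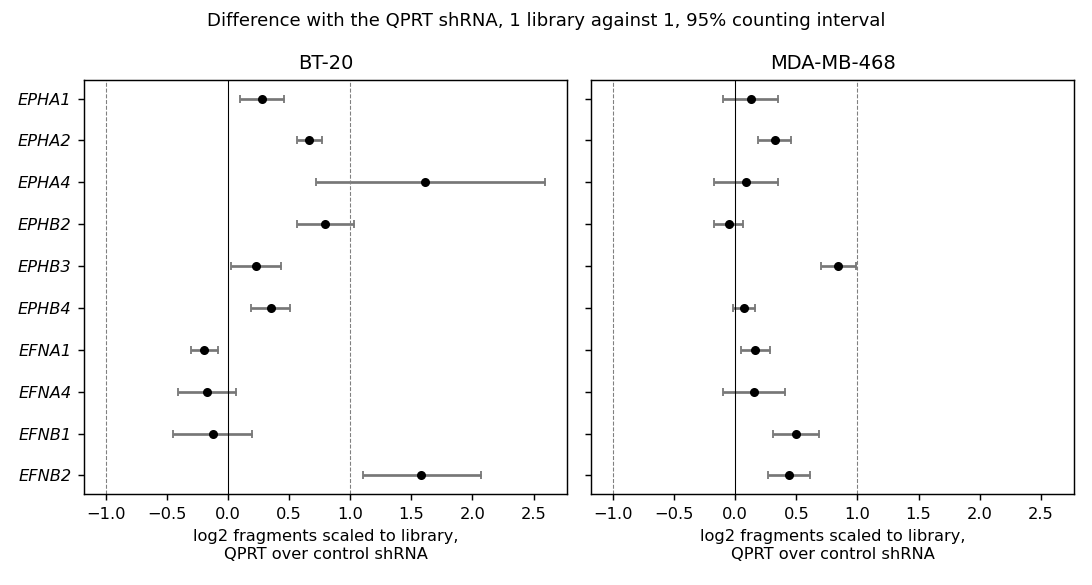
Log2 ratio of fragments scaled to library size, QPRT over control shRNA, of each member in BT-20 (left) and MDA-MB-468 (right), with 95% Clopper-Pearson counting intervals from 1 library against 1 (dashed lines mark 2-fold). EPHA4 and EFNB2 lie farthest right in BT-20, and EPHB3 does so in MDA-MB-468.

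The members made up 83.7% to 87.3% of family FPKM, and the other 12 family genes the rest. Of those 12, EFNA5, EPHB6 and EPHA10 had higher mean levels than EFNB1, EPHA4 and EFNB2. EFNA3 had a higher mean level than EPHA4 and EFNB2. EPHA3, EPHA5 and EPHA7, receptors known mainly from the nervous system, were listed at 0 in every library, and EPHA6, EPHA8 and EPHB1 had a mean under 1 FPKM. Of the 6 genes tested, 4 were called between the lines, against 55.1% of all genes. EPHA10, which lacks kinase activity, was higher in MDA-MB-468 (4.32 and 3.64 FPKM in BT-20 against 15.4 and 13.4), as was the ligand EFNA5 (12.9 and 16.4 against 21.0 and 22.3). The ligands EFNA3, given above, and EFNA2 (2.08 and 2.03 against 0.578 and 0.408 FPKM) were higher in BT-20. The B-class genes outside the members did not share the line difference of the B-class members. EPHB6 and EFNB3 overlapped between the lines, at 0.12 and 0.07 log2 units (limma adjusted p = 0.682 and 0.836). EPHB1, too low to be tested, had 0.490 and 1.67 FPKM in BT-20 against 0.237 and 0.0840 in MDA-MB-468. None of the 6 genes tested was called for the shRNA, against 0.628% of all genes, and 1 had an unadjusted p under 0.05, against 4.80%. This was EPHB6, the other kinase-inactive receptor, at 17.8 and 12.6 FPKM in BT-20 against 19.6 and 13.8 in MDA-MB-468 (-0.47 ± 0.24 log2 units, SE, limma adjusted p = 1). It was thus 1.41-fold and 1.42-fold lower with the QPRT shRNA, in the direction opposite to the 6 members higher in both lines. EFNB3, the ephrin-B of the nervous system, was at 3.63 FPKM with the control shRNA and 6.62 with the QPRT shRNA in MDA-MB-468, and at 5.38 and 3.98 in BT-20.

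The partners of Eph and ephrin signalling were followed as a list of 42 adaptors, kinases, phosphatases, GTPase regulators and proteases, of which 38 were tested. Between the lines 19 were called, 7 higher in MDA-MB-468 and 12 higher in BT-20, against 55.1% of all genes (30.7% and 24.4%). CHN2, a Rac GTPase-activating protein, had the largest difference, with 0.377 and 1.10 FPKM in BT-20 against 7.77 and 6.30 in MDA-MB-468 (2.23 ± 0.29 log2 units, SE, limma adjusted p = 1.34e-13). Also higher in MDA-MB-468 were GRIP1, a scaffold that binds ephrin-B tails (1.31 log2 units), PTPN13, a phosphatase of ephrin-B (1.25), the adaptor SHB (1.04) and the kinase ABL2 (0.82). Higher in BT-20 were the polarity proteins PARD6A (-1.61) and PARD6B (-1.16), the kinases PTK2 (-1.49) and SRC (-1.21), syntenin SDCBP (-1.22), the phosphatase PTPN1 (-1.12) and the ephrin-A protease ADAM10 (-1.10). ADAM10 was at 146 and 196 FPKM in BT-20 against 91.2 and 67.5 in MDA-MB-468. With the QPRT shRNA 0 of 38 were called over both lines, against 0.628% of all genes, and 0 had an unadjusted p under 0.05 in limma, against 4.80%. On the log2(FPKM + 1) scale none was past 2-fold in either line, against 1.70% of all genes for BT-20 and 1.89% for MDA-MB-468. Without the pseudocount 1 gene, CHN2, was past 2-fold higher with the QPRT shRNA in BT-20, as its values above show. That ratio rested on 4 and 13 fragments, and its counting interval, -0.03 to 3.74 log2 units, included 0. The median difference was 0.12 log2 units in BT-20 against 0.02 in MDA-MB-468.

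The genes whose pattern over the 4 libraries was most like that of EPHA2 and EPHA4 were found among 10387 genes whose mean was 5 FPKM or more, by the Euclidean distance of log2(FPKM + 1) centred on the mean of each gene. For EPHA2 they were TNRC6A (distance 0.08), DYRK2 (0.08) and TGFBR2 (0.09). TGFBR2, the type II TGF-beta receptor, had 8.84 and 14.4 FPKM in BT-20 against 5.98 and 8.13 in MDA-MB-468. For EPHA4 they were AHR (0.13), NOTCH3 (0.19) and TBC1D8 (0.21). AHR, the aryl hydrocarbon receptor, had 6.57 and 15.2 FPKM in BT-20 against 61.8 and 64.4 in MDA-MB-468. The nearest member to EPHA4 was EFNB2, at a distance of 0.52, and the nearest to EPHA2 was EPHA1, at 0.34. These distances rest on 4 libraries and describe likeness of pattern only.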

How the data were processed

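RNA was extracted with Trizol, and libraries were made with the Illumina TruSeq RNA kit and sequenced on a NovaSeq system. The authors deposited FPKM per Ensembl gene. TopHat2 2.0.12 and HTSeq 0.6.1 are named in the submitters' processing notes, with FastQC, MultiQC and CASAVA. The build, the annotation and the use of strand in counting are not given in the sources used here. Coordinates and lengths are from GENCODE release 29 (GRCh38).

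FPKM multiplied by the mean transcript length gave whole fragments (within 0.02) for 87.3% to 87.5% of the values, and for 97.5% to 97.7% in genes with 1 transcript. EFNB2 was outside this tolerance in 3 libraries. Of the 50653 genes, 49414 had a symbol, and 27 repeated symbols were dropped. Groups were taken from the labels. Log2(FPKM + 1), with a pseudocount of 1, was fitted with limma 3.58.1 (R 4.3.3) on cell line and shRNA, with eBayes and a trend, for 14321 genes whose mean was 1 FPKM or more, and p-values were adjusted over all of them. Differences on this scale understate those of low genes. The count test of the authors needs counts and was not run. The fit was tested on simulated data, where more of its calls were false than the nominal rate, mostly among genes with few fragments, and limma-voom on fragments lay nearer to that rate. Exact Clopper-Pearson intervals cover counting error only, since no molecular identifiers separate PCR copies from molecules. Promoter windows were matched by symbol. Scripts used scipy 1.17.1, pandas 2.3.3, numpy 2.4.6 and matplotlib 3.10.9 in Python 3.11.15.

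The members, the list of signalling partners, the markers and the tests were chosen with earlier results of these data known. Named genes were the members, family genes whose mean reached 1 FPKM, up to 12 signalling partners called for the shRNA, past 2-fold or with the largest called line differences, QPRT, and the 3 nearest genes to EPHA2 and to the member of largest line difference. Markers and overlapping genes were named in addition. Alternatives covered the pseudocount, scaling, filters, thresholds, GC content and length, limma-voom, the model terms, and leaving out each library. The comparison of lines within 1 shRNA, fragments without a pseudocount and the longest transcript as length were chosen after seeing the data.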

Additional observations from a re-analysis of the deposited data

Results flagged for a closer look

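In 4 members the difference between QPRT and control shRNA had opposite signs in BT-20 and MDA-MB-468. With 1 library per line and shRNA no interaction could be tested, so the difference between the lines was not tested. The BT-20 difference minus that of MDA-MB-468, on the log2(FPKM + 1) scale, was 0.762 for EPHB2, -0.355 for EFNA1, -0.314 for EFNA4 and -0.566 for EFNB1. EPHB2 was higher with the QPRT shRNA in BT-20 by 0.71 and lower in MDA-MB-468 by a difference of -0.05, whose counting interval included 0. The 3 ligands were lower with the QPRT shRNA in BT-20 and higher in MDA-MB-468. For EFNA1 both counting intervals excluded 0 (-0.30 to -0.09 and 0.05 to 0.28 log2 units of fragments), for EFNB1 only that of MDA-MB-468 did, and for EFNA4 neither did. Over all genes tested 54.6% had opposite signs in the lines.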

How the results depend on the processing

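The 8 members called between the lines stayed 8 with a pseudocount of 0.1, a mean FPKM of at least 5, upper quartile or TPM scaling, the GC content and length trend removed, eBayes without a trend, limma-voom and no shRNA term, and 7 passed an adjusted p under 0.01. With no filter on low values 0 members and 0 genes were called in limma for the line, with 7482 of 50626 genes at an unadjusted p under 0.05. Leaving out 1 library left 4 to 6 members (4 without BT-20 QPRT shRNA and 4 without MDA-MB-468 QPRT shRNA) and 4475 to 4848 genes, against 7893 genes. These fits had no shRNA term, and they leave 1 line with a single library, assumed to vary like the other. A call lost in them thus cannot be laid to the missing library alone. For the shRNA over both lines 0 members were called under every alternative run, while all genes called went from 90 to 45 with a mean FPKM of at least 5, 2 with the GC content and length trend removed, 0 with no filter (813 at an unadjusted p under 0.05) and 0 without the cell line term (17 unadjusted). EFNA4 over both lines moved from -0.01 to 0.0013 with TPM scaling, and EFNA1 between the lines was 0.0016 within the QPRT shRNA. In BT-20 the members past 2-fold numbered 1, and were 2 with a pseudocount of 0.1, with TPM scaling or with fragments and no pseudocount (EFNB2 and EPHA4), 0 with upper quartile scaling or the GC content and length trend removed, and 4 at 1.5-fold. In MDA-MB-468 they numbered 0, and 1 at 1.5-fold. The EPHA2 share of receptors, in the order BT-20 control and QPRT shRNA, then MDA-MB-468, was 47.6%, 53.0%, 21.8% and 22.8% among the member receptors, 35.0%, 42.2%, 13.7% and 15.5% in fragments, and 38.4%, 46.6%, 17.8% and 19.7% with the longest transcripts. The shRNA libraries were paired by cell line only, and the cell line is already a term of the fit. The labels carry no replicate numbers for any other pairing. The low fragment numbers of EPHA4 and EFNB2 in BT-20 limit the precision of their ratios.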
